A study of Danio rerio with 18 samples.

Results

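The genes cyb5a, sult6b1, nt5c2l1 and zdhhc2, which encode metabolic and protein-modifying proteins outside the cyp1 family, are described here in the regenerating caudal fin of zebrafish. They were chosen by their higher levels after TCDD from 1 day post amputation (dpa) on these same arrays, so that their differences between TCDD and vehicle are a description. No p-value is given for them, and counts of calls among them stand beside the share over the array without being read as a test. They are 4 of 8793 genes with an unambiguous symbol on the array, and each is read by 1 of the 15502 probe sets that are not controls. The fish were adult males of the AB strain, a wild-type line, and every fish had its caudal fin cut where the rays branch. Controls received phosphatidylcholine liposomes alone, and exposed fish received liposomes with TCDD (2,3,7,8-tetrachlorodibenzo-p-dioxin) at 50 ng/g, injected at the time of amputation. Regrown tissue, taken with up to a few ray segments of old fin, was collected at 1, 3 or 5 dpa, giving 6 groups (vehicle and TCDD at each day) of 3 Affymetrix arrays and 18 arrays in all. Each array carries the pooled tissue of 10 fish and a replicate letter from A to E, so that each error below is the spread between pools and not between fish.

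TCDD binds the aryl hydrocarbon receptor (AHR), a ligand-activated transcription factor that pairs with ARNT and switches on genes for oxidising and conjugating enzymes, of which cyp1a is the classical one. Cytochrome b5, the product of cyb5a, is a small haem protein of the endoplasmic reticulum that hands electrons to fatty acid desaturases and to some cytochrome P450 enzymes. Sult6b1 belongs to the cytosolic sulfotransferases, which move a sulfonate group from the donor PAPS onto small molecules. The gene nt5c2l1 is annotated as similar to cytosolic 5'-nucleotidase II, an enzyme that in mammals removes the phosphate from purine nucleotides such as IMP and GMP. Zdhhc2 is a DHHC-type palmitoyltransferase, which attaches palmitate to cysteines of other proteins. The genes lie on 4 different chromosomes in the RefSeq table of the zebrafish genome.

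All values below are log2(intensity + 1) of the deposited intensities, and all differences are on that scale. At 1 dpa, all 4 genes were higher with TCDD and passed an adjusted p under 0.05, a call made in the upward direction for 0.161% of all probe sets. All 4 passed at 3 dpa, where 0.381% of probe sets did, and 3 of 4 passed at 5 dpa, where 0.768% did. The exception at 5 dpa was sult6b1, which did pass on that day with the replicate letter as a block, with just the compared groups in the fit, or without TCDD letter B of 3 dpa. On each day every TCDD array of each gene lay above every vehicle array, an order that 8.76% of probe sets showed at 1 dpa, 13.0% at 3 dpa and 10.4% at 5 dpa. Because the members were picked for this contrast, nothing is read from these shares. The calls given below for each of the 4 genes, and their loss in other settings, rest on the same contrasts. They describe the spread of the values and are not tests. In bulk tissue a higher level cannot be told apart from more cells of an expressing type.

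cyb5a had a nearly flat baseline and a wide spread after TCDD. At 1 dpa its vehicle arrays stood at 7.55, 7.46 and 7.61 (letters B, D and E) and its TCDD arrays at 10.99, 10.19 and 9.64 (letters A, B and D). At 3 dpa the vehicle arrays stood at 7.59, 7.98 and 7.67 and the TCDD arrays at 11.43, 9.64 and 10.99 (letters A, B and C in both). At 5 dpa the vehicle arrays stood at 7.14, 7.34 and 7.74 (letters A, B and C) and the TCDD arrays at 11.00, 10.12 and 9.22 (letters A, B and D). The groups did not come close to each other on any day, and the letter A pool was the highest TCDD array each time. The narrowest gap, between the highest vehicle and the lowest TCDD array, was 1.48 at 5 dpa. The differences were 2.73, 2.94 and 2.71 (each ± 0.45 SE, n = 3 against 3) at 1, 3 and 5 dpa, or 6.65-, 7.66- and 6.53-fold. The SD was 0.07 to 0.31 in the vehicle groups and 0.68 to 0.93 in the TCDD groups. The call at 1 dpa was lost without vehicle letter D or E or TCDD letter A, and that at 3 dpa without both letter C arrays of that day, where the difference was 2.75.

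sult6b1 had the smallest differences of the 4 and a baseline that moved with the day. At 1 dpa its vehicle arrays stood at 8.92, 8.44 and 8.44 (B, D and E) and its TCDD arrays at 10.73, 10.14 and 10.02 (A, B and D). At 3 dpa the vehicle arrays stood at 10.22, 9.92 and 9.37 and the TCDD arrays at 11.43, 10.45 and 11.54 (A, B and C in both). At 5 dpa the vehicle arrays stood at 9.99, 9.85 and 9.48 (A, B and C) and the TCDD arrays at 10.90, 10.79 and 10.81 (A, B and D). The groups were separate on each day but met most closely at 3 dpa, where the highest vehicle pool, letter A, lay 0.23 below the lowest TCDD pool, letter B. The differences were 1.70, 1.30 and 1.06 (each ± 0.28 SE) at 1, 3 and 5 dpa, or 3.24-, 2.47- and 2.08-fold. Without the letter C arrays of 3 dpa, the difference on that day was 0.87 and the call was lost. The call at 3 dpa was also lost without vehicle letter B or C or TCDD letter A or C of that day, or without vehicle or TCDD letter B of 5 dpa. The call at 1 dpa was lost without vehicle letter D or E or TCDD letter A. With the replicate letter as a block, the difference at 1 dpa was 1.46 and did not pass, and that at 5 dpa was 1.11 and passed.

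nt5c2l1 read close to the bottom of the array in vehicle fish. At 1 dpa its vehicle arrays stood at 3.60, 2.76 and 3.55 (B, D and E) and its TCDD arrays at 6.09, 6.70 and 4.94 (A, B and D). At 3 dpa the vehicle arrays stood at 3.57, 3.94 and 3.36 and the TCDD arrays at 7.41, 6.18 and 6.45 (A, B and C in both). At 5 dpa the vehicle arrays stood at 3.85, 4.20 and 3.83 (A, B and C) and the TCDD arrays at 7.18, 6.89 and 6.35 (A, B and D). The smallest separation was at 1 dpa, where the letter D pool was the lowest of both groups and the gap was 1.33. The differences were 2.61, 3.05 and 2.85 (each ± 0.40 SE), or 6.09-, 8.31- and 7.19-fold. Its vehicle values lay between the percentiles 5.0 and 27.4 of all probe sets on their arrays, and its TCDD values between 35.9 and 61.8. With 16 in place of 1 added before the log, the differences were 1.61, 2.11 and 2.06, so that their size rests on how the dimmest signals are treated. The call at 1 dpa was lost without vehicle letter D or TCDD letter A.

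zdhhc2 had group means that were higher with each later day in both exposures. At 1 dpa its vehicle arrays stood at 6.47, 5.28 and 5.75 (B, D and E) and its TCDD arrays at 7.66, 7.55 and 7.63 (A, B and D). At 3 dpa the vehicle arrays stood at 6.27, 6.21 and 5.91 and the TCDD arrays at 9.05, 8.55 and 9.08 (A, B and C in both). At 5 dpa the vehicle arrays stood at 7.35, 7.18 and 6.77 (A, B and C) and the TCDD arrays at 9.14, 8.95 and 9.36 (A, B and D). The TCDD pools of 1 dpa were the tightest group, with an SD of 0.06, and the vehicle pools of the same day the widest, with an SD of 0.60. The differences were 1.78, 2.76 and 2.05 (each ± 0.25 SE) at 1, 3 and 5 dpa, or 3.44-, 6.76- and 4.14-fold. With just the compared groups in the fit, where no probe set passed at 1 dpa, that day's calls of all 4 genes were lost, as were those of cyb5a and sult6b1 at 3 dpa.

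**Figure D1:**
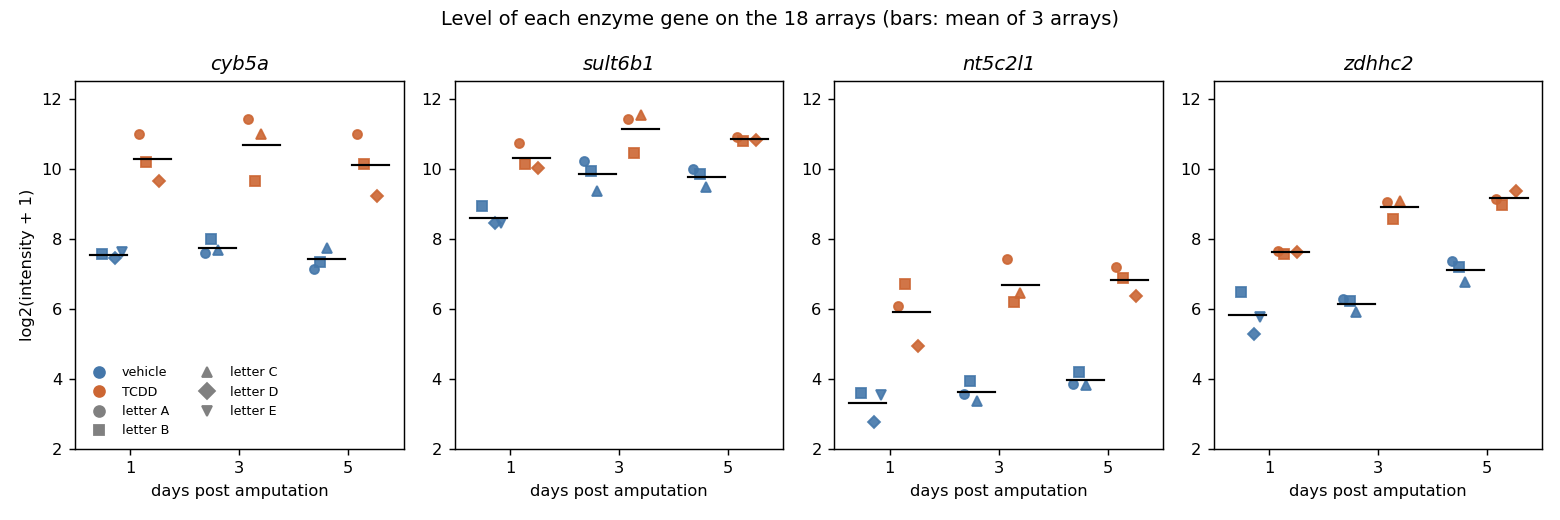
Log2(intensity + 1) of cyb5a, sult6b1, nt5c2l1 and zdhhc2 on each of the 18 arrays against days post amputation, with a symbol for each replicate letter, one colour for vehicle and one for TCDD, and a bar at each group mean. Every TCDD array lies above every vehicle array of its day, with the closest approach, 0.23, for sult6b1 at 3 dpa.

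Over all probe sets, the genes held different places in the order of differences. They were chosen by this same difference, which put them near the top, so that nothing is read from these places. At 1 dpa, cyb5a was 8th, zdhhc2 16th and sult6b1 19th from the top of 15502. By 3 dpa their places were 11, 12 and 58 for cyb5a, zdhhc2 and sult6b1. At 5 dpa they were 13, 20 and 108 in the same gene order. No place is given for nt5c2l1, whose dim vehicle values leave the size of its difference dependent on the pseudocount. The cyp1a gene, measured on the same arrays, differed by 6.80 ± 1.16, 7.06 ± 1.16 and 5.34 ± 1.16 (SE).

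**Figure D2:**
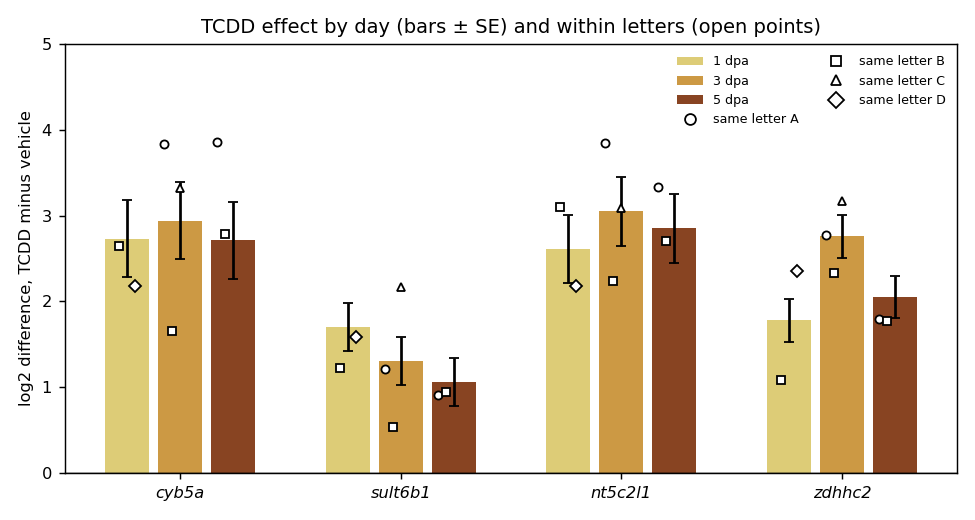
Log2 difference between TCDD and vehicle at 1, 3 and 5 dpa for each gene (bars, 3 arrays against 3, with the standard error from limma as whiskers), and the differences within the 7 pairs of arrays that share a day and a letter (symbols). cyb5a and nt5c2l1 stay between 2.61 and 3.05 on all days, zdhhc2 is at its highest at 3 dpa, and sult6b1 runs from 1.70 to 1.06.

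The order of the 6 groups differed from gene to gene. For cyb5a the vehicle groups followed the order 5, 1 and 3 dpa and the TCDD groups the same order above them, and neighbours overlapped within each exposure. For nt5c2l1 the order followed the day within each exposure, from 3.30 ± 0.47 to 3.96 ± 0.21 in vehicle and from 5.91 ± 0.90 to 6.81 ± 0.42 in TCDD (mean ± SD, n = 3), again with overlapping neighbours. For sult6b1 the vehicle group at 1 dpa stood apart below all others at 8.60 ± 0.28. The TCDD group of 1 dpa (10.30 ± 0.38) overlapped the vehicle group of 3 dpa (9.84 ± 0.43), so that exposed fish on the first day and controls on the third day were not separated. For zdhhc2 the vehicle groups of 1 and 3 dpa overlapped (5.83 ± 0.60 and 6.13 ± 0.19), and those of 5 dpa (7.10 ± 0.30) lay between them and the TCDD group of 1 dpa (7.61 ± 0.06). Its TCDD groups of 3 and 5 dpa overlapped (8.89 ± 0.30 and 9.15 ± 0.21).

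The course within one exposure was not used in choosing the genes, although it shares its arrays with the contrasts that were. A choice by the difference at 1 dpa favours low vehicle and high TCDD pools on that day. This can push the vehicle step from 1 to 3 dpa upward and the TCDD step downward. From 1 to 3 dpa in vehicle fish, 1 of the 4 genes passed the test, against 5.51% of all probe sets in either direction. sult6b1 rose by 1.24, or 2.36-fold (95% interval 0.64 to 1.83, limma adjusted p = 0.0175), and every vehicle pool of 3 dpa lay above every vehicle pool of 1 dpa. This call did not hold with the replicate letter as a block (0.95, adjusted p = 0.112), when just those groups entered the fit (adjusted p = 0.0931), or without vehicle letter D or E of 1 dpa or vehicle letter A of 3 dpa (adjusted p up to 0.0763). cyb5a differed by 0.21 (interval -0.76 to 1.18), nt5c2l1 by 0.32 (-0.54 to 1.18) and zdhhc2 by 0.30 (-0.24 to 0.84), none of which passed. With the letter as a block these became -0.48, 0.02 and 0.19. Each interval, here and below, rests on a spread shared by all 6 groups. For cyb5a the residual SD over these groups was 0.61. Its SD was 0.07 and 0.2 in the vehicle groups of 1 and 3 dpa, and 0.68 to 0.93 in the TCDD groups. From 3 to 5 dpa none of the 4 passed in limma, where 0.342% of probe sets did, and 1 of the 4 had an unadjusted p under 0.05, beside 12.1% of probe sets. It was zdhhc2, with a difference of 0.96 (interval 0.43 to 1.50, adjusted p = 0.124), and its vehicle pools of 5 dpa all lay above those of 3 dpa.

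In TCDD fish, 1 of the 4 genes passed from 1 to 3 dpa, against 10.8% of all probe sets. zdhhc2 rose by 1.28, or 2.42-fold (interval 0.74 to 1.82, adjusted p = 0.00446), without overlap between the days. The call held without any one array (adjusted p from 0.00109 to 0.0257) and with the replicate letter as a block (1.27, adjusted p = 0.0117). sult6b1 differed by 0.84 (interval 0.25 to 1.44, adjusted p = 0.0684, or 0.0451 when dim probe sets were left out). It passed without TCDD letter A of 1 dpa or letter B of 3 dpa, and the adjusted p ran from 0.0104 to 0.26 over the 18 left-out arrays. nt5c2l1 differed by 0.77 (interval -0.09 to 1.63) and cyb5a by 0.41 (interval -0.55 to 1.38). With the letter as a block these became 0.53 and 0.00, and over the left-out arrays they ran from 0.28 to 1.16 and from 0.04 to 0.94. From 3 to 5 dpa none of the 4 passed, nor had any an unadjusted p under 0.05, where 0.0129% of probe sets passed in limma and 6.63% had such a p, with differences from -0.57 for cyb5a to 0.26 for zdhhc2.

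Whether the TCDD difference itself changed with the day was tested with an F test over the 3 days. None of the 4 genes passed, and 0.0516% of all probe sets did. At an unadjusted p under 0.05 the limma count was 1 of the 4, zdhhc2, beside 12.2% of all probe sets. The choice of the genes by their difference at 1 dpa bears on this comparison. zdhhc2 had the lowest adjusted p of the 4, at 0.387. Its TCDD difference was 0.98 larger at 3 than at 1 dpa (interval 0.22 to 1.74) and changed by -0.71 from 3 to 5 dpa (interval -1.47 to 0.05). The intervals are not adjusted for the number of probe sets. For the change from 1 to 3 dpa, 0 probe sets passed in limma and 4.32% had an unadjusted p under 0.05. For sult6b1, whose mean differences ran downward with the day, the step from 1 to 3 dpa was -0.39 (interval -1.24 to 0.45) and the adjusted p was 0.732. The adjusted p was 0.95 for nt5c2l1 and 0.993 for cyb5a. Their intervals from 1 to 3 dpa, -0.77 to 1.67 and -1.16 to 1.57, leave room for changes over 1 log2 unit.

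A replicate letter marks arrays that deviate together, and 7 pairs of arrays share both a day and a letter across exposures. Within these pairs cyb5a differed by 1.66 to 3.86 (median 2.78), nt5c2l1 by 2.18 to 3.84 (median 3.09), zdhhc2 by 1.08 to 3.17 (median 2.33) and sult6b1 by 0.54 to 2.17 (median 1.21). Every one of these differences was above 0 for each gene. This follows from the order already given, with every TCDD array above every vehicle array of its day, and adds nothing to it.

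Levels on the 9 vehicle arrays are given here by letter, as a description with no share over all probe sets beside it. On these arrays cyp1a ran over 5.94 log2 units, from 4.19 to 10.13. At 1 dpa it read 8.68 in letter B against 4.48 and 4.19 in D and E. On the third day it read 7.78 and 8.03 in A and B against 4.39 in C, and at 5 dpa 8.88 and 10.13 in A and B against 6.06 in C. sult6b1, zdhhc2 and nt5c2l1 likewise read higher in B at 1 dpa, and in A and B at 3 and 5 dpa. Between A and B the order differed, with cyp1a highest in B each day and sult6b1 and zdhhc2 in A at 3 and 5 dpa. Over all 9 vehicle arrays sult6b1, zdhhc2 and nt5c2l1 ranged over 1.78, 2.07 and 1.44 log2 units. These ranges, like that of cyp1a, include changes between days. Within a day the SD of the vehicle arrays was 0.26 to 0.43 for sult6b1, 0.19 to 0.60 for zdhhc2 and 0.21 to 0.47 for nt5c2l1. For nt5c2l1 the margins were small at 1 dpa, 3.60 in B against 3.55 in E, and at 5 dpa, 3.85 in A against 3.83 in C. By percentile on the array, A (22.0) lay below C (22.8) at 5 dpa. cyb5a ranged over 0.84 log2 units, with an SD within a day of 0.07 to 0.31. It did not follow these letters, with letter E highest at 1 dpa and letter C at 5 dpa. What a letter stood for was not given in the labels, and its part in these levels was not tested. How many of all probe sets follow the same letters was not counted, and a letter marks arrays that deviate together beyond these genes.

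**Figure D3:**
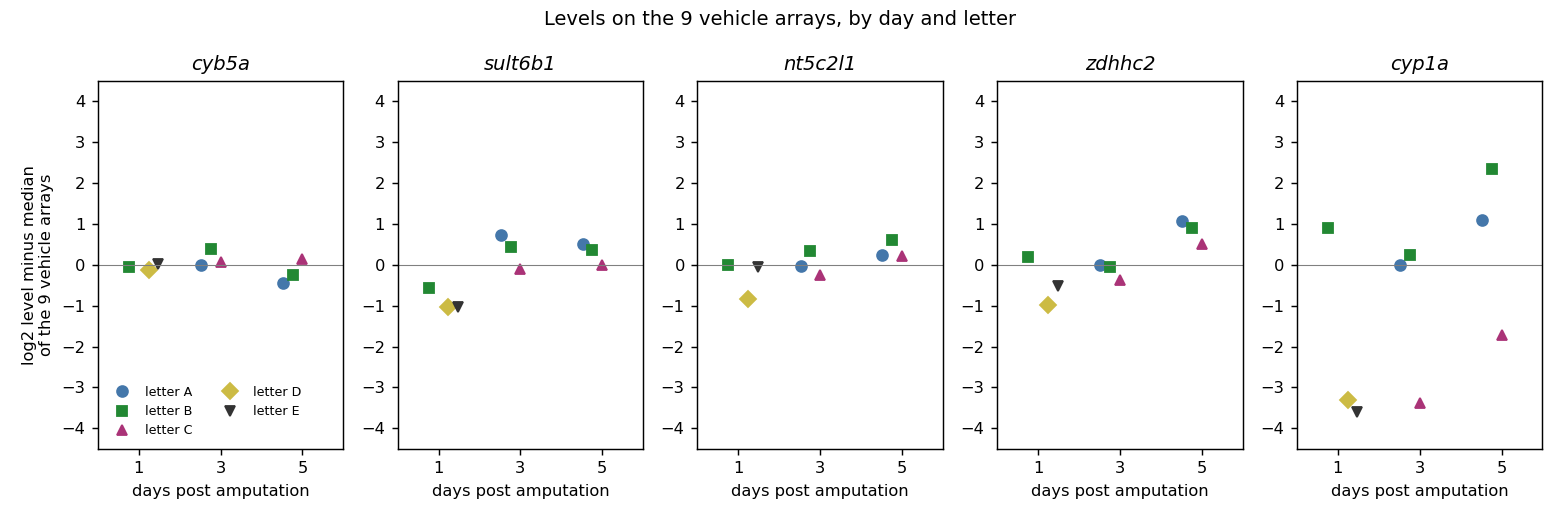
Levels of the 4 genes and of cyp1a on the 9 vehicle arrays, as log2 units from the median of those arrays, against days post amputation, with a colour and symbol for each replicate letter. Letters A and B lie above the other letters of their day for sult6b1, nt5c2l1, zdhhc2 and cyp1a, and not for cyb5a. How many of all probe sets show this order was not counted, and a letter marks arrays that deviate together.

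Deviations of the genes from their group means were also set beside each other, without a test. Over the 9 TCDD arrays, deviations of cyb5a correlated with those of sult6b1 at r = 0.79 and with those of nt5c2l1 at r = 0.70, and with those of zdhhc2 at 0.34. Over the 9 vehicle arrays the same values were -0.37, 0.30 and -0.23. sult6b1 and zdhhc2 deviated together in both exposures, at 0.78 in vehicle and 0.74 in TCDD. For nt5c2l1 and zdhhc2 the values were 0.71 in vehicle and 0.08 in TCDD, and for sult6b1 and nt5c2l1 0.45 and 0.42. The vehicle values of nt5c2l1 are dim, at percentiles 5.0 to 27.4. These are descriptions over few arrays that share their letters and the normalization of the array, and nothing is read from differences between them.

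Other genes of the same enzyme groups were read from 4 lists: cytochrome b5, its reductases and partner enzymes; sulfotransferases and the enzymes of PAPS; 5'-nucleotidases and purine salvage; and DHHC enzymes with depalmitoylating enzymes. Together they held 46 measured genes besides the 4. None of the 46 was called higher on any day in the reported fit, a call made for 0.161%, 0.381% and 0.768% of probe sets at 1, 3 and 5 dpa. Shares this low leave little room for a call in a list of 46. Some of the genes read near the bottom of the array, such as scd and sult4a1, with means of 2.44 and 2.94. At 1 dpa 1 fell, against 0.245% of probe sets called in either direction, and none passed at 3 dpa (1.11% of probe sets) or 5 dpa (1.64%). At an unadjusted p under 0.05 there were 6, 12 and 3 of the 46 at 1, 3 and 5 dpa in limma, or 13.0%, 26.1% and 6.52%, beside 7.45%, 11.9% and 17.8% of all genes. On the mean of the 3 days 1 of 46 fell, against 3.78% of probe sets. The median difference of the 46 was 0.05, 0.03 and 0.11 at 1, 3 and 5 dpa, beside 0.04, 0.04 and 0.01 for all 8793 genes.

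Among the partners of cyb5a, none of 8 genes passed on any day. cyb5b, which encodes the cytochrome b5 of the outer mitochondrial membrane, differed by 0.15, -0.64 and 0.01 at 1, 3 and 5 dpa. cyb5r3, the reductase that loads cytochrome b5 with electrons, differed by -0.25, -0.09 and 0.04. fads2, a fatty acid desaturase with a b5-like domain, had the most negative value of the list, -1.79 ± 0.61 at 3 dpa (adjusted p = 0.242). With the replicate letter as a block it passed (adjusted p = 0.00449).

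None of the 10 other sulfotransferase and PAPS genes passed either. sult1st1 differed by 0.59, 0.47 and 0.38 at 1, 3 and 5 dpa. sult2st1 was highest at 3 dpa, at 0.77 ± 0.33 (adjusted p = 0.404). sult2st2 came nearest, averaged over the days, at 0.37 ± 0.11 (adjusted p = 0.0723), and passed under quantile normalization (0.0404), median centring (0.0435) and a constant prior (0.0468).

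Of the 11 other nucleotidase and purine genes, nt5dc2, a 5'-nucleotidase domain gene, was the one that passed, and it fell. It was 9.86 ± 0.27 in vehicle and 8.91 ± 0.13 in TCDD fish at 1 dpa, a difference of -0.95 (adjusted p = 0.0389). This call was lost without any one of 12 of the 18 arrays, with an adjusted p up to 0.188. At 3 and 5 dpa the differences were -0.49 (adjusted p = 0.289) and -0.36 (adjusted p = 0.313). Averaged over the days, it fell by 0.60 (adjusted p = 0.00336), and this call held without any one array (adjusted p up to 0.0104). nt5c2a, the closest in name to nt5c2l1, differed by -0.12, 0.11 and 0.18. ampd3b, an AMP deaminase, differed by 0.96 ± 0.25 at 3 dpa (adjusted p = 0.0909). Under the letter block its adjusted p was 0.00177.

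None of the 17 other DHHC and depalmitoylating genes passed in the reported fit, and their differences ran from -0.45 to 0.56 over all days. The highest, 0.56 ± 0.23, was that of ppt1, a lysosomal depalmitoylating enzyme, at 3 dpa (adjusted p = 0.388). Averaged over the days, zdhhc15b differed by 0.30 ± 0.09 (adjusted p of 0.0757), and it passed without dim probe sets (0.0487). zdhhc16b passed on the same average under a constant prior (0.0478). In the AHR list, cyp1a and cyp1c1 were the 2 of 8 genes called higher on each day, beside 0.161%, 0.381% and 0.768% of all probe sets. For cyp1c1 this is the probe set used here. Of its other probe sets, 1 differed by 2.86, 3.78 and 3.19 at 1, 3 and 5 dpa. It passed at 3 dpa (limma adjusted p = 0.0448) and not at 1 or 5 dpa (0.305 and 0.074). Another differed by 0.31, 0.29 and -0.01 and passed on no day. The cyp1a call was lost without any one of 4 arrays at 1 dpa and 5 at 5 dpa, and that of cyp1c1 without any one of 2 at 1 dpa. With just the compared groups in the fit, 0 of the 8 passed at 1 dpa and 1 at 5 dpa, and 1 passed at 3 dpa without the letter C arrays. Averaged over the days, tiparp, an ADP-ribosyltransferase and AHR target, rose by 0.80 (adjusted p = 0.00659) and ahr2, the main AHR of zebrafish, by 0.36 (adjusted p = 0.0206). Both of these, and nqo1 of the same list, had positive differences on each day without a call on any single day.

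**Figure D4:**
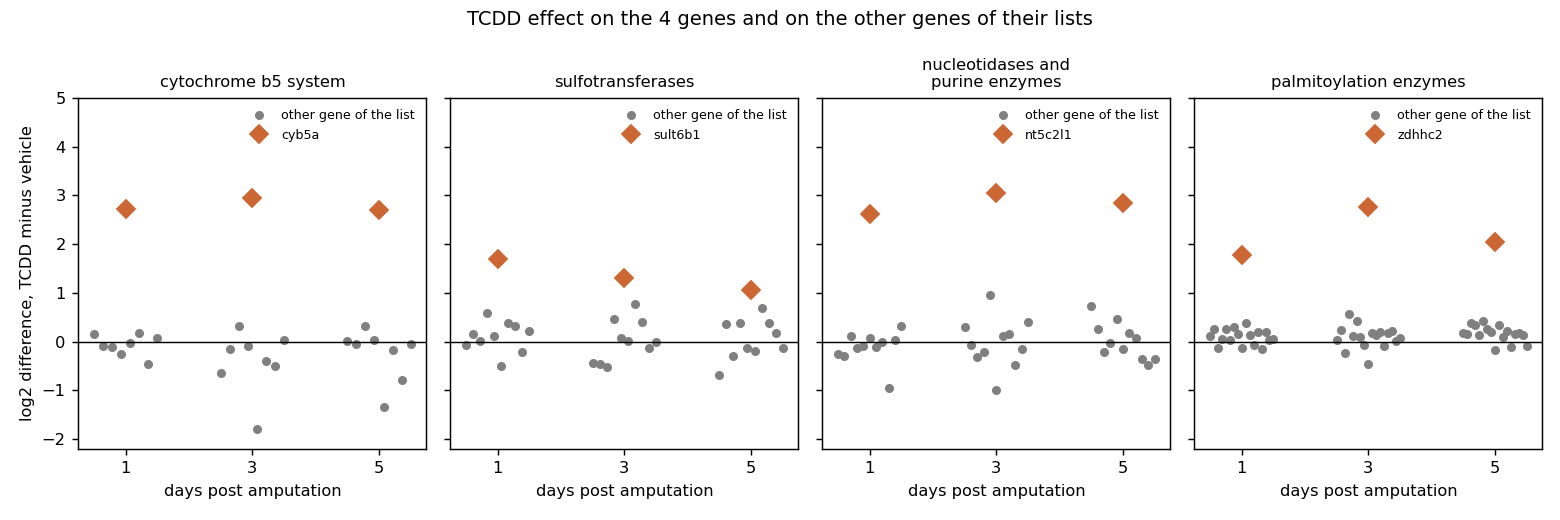
Log2 difference between TCDD and vehicle at 1, 3 and 5 dpa for the 4 genes and for the 46 other measured genes of their lists, with one panel per list and one point per gene and day. The 4 genes lie between 1.06 and 3.05, and the highest other value is 0.96. Because the 4 genes were chosen by this difference, their place above the others is not a finding.

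Genes with the most similar levels were listed by Pearson's r over the 18 arrays, among 5983 named genes. Since the exposure splits the arrays, any gene with a large TCDD difference scores high, and r within 9 arrays of one exposure is given beside it. That r is taken on levels over all days, so that a shared course between days and shared letters remain in it. zdhhc2 was closest to rspo1, an activator of Wnt signalling (r = 0.976, 0.84 within vehicle and 0.96 within TCDD), then to aoc2, an amine oxidase (0.958, 0.82 and 0.94). dchs1b (0.942, 0.63 and 0.92), fzd7a (0.94, 0.86 and 0.76) and sqor (0.93, 0.83 and 0.97) followed. sult6b1 was closest to fzd7a, a Wnt receptor (0.929, 0.89 and 0.68). Then came dchs1b, a large cadherin (0.924, 0.84 and 0.78), and dlx4b, a homeobox gene (0.924, 0.95 and 0.75). rspo1 (0.917, 0.84 and 0.77) and nfe2l2a (0.901, 0.81 and 0.87), which encodes an activator of antioxidant genes, followed.

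nt5c2l1 was closest to mpx, the neutrophil myeloperoxidase gene (0.964, 0.73 and 0.75). Then came rspo1 (0.94, 0.68 and 0.70), ahcyl1 (0.931, 0.78 and 0.81), cyp1a (0.921, 0.73 and 0.73) and the collagenase gene mmp13a (0.92, 0.49 and 0.56). cyb5a was also closest to mpx (0.914), but r was -0.38 within vehicle and 0.32 within TCDD. Its next genes were ccl27a (0.894), cyp1c1 (0.883), mapk14a (0.876) and esm1 (0.868). Their r was -0.63 to -0.20 within vehicle and 0.30 to 0.64 within TCDD. The mpx probe set used here differed by 3.70, 3.91 and 3.80 between TCDD and vehicle at 1, 3 and 5 dpa (limma adjusted p = 0.000344, 8.3e-05 and 0.000125). The other 3 probe sets of that symbol differed by -0.78 to 0.50 and none passed. rspo1 rose by 3.18, 4.33 and 3.91 (adjusted p = 0.00977, 0.000351 and 0.00113), the first of these being lost without any one of 3 arrays (adjusted p up to 0.082). fzd7a rose by 2.42, 1.93 and 1.62 (adjusted p = 0.00531, 0.01 and 0.024), with its calls at 3 and 5 dpa lost without any one of 2 and 4 arrays.

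Marker lists were read beside these differences, and their part in them was not tested. The 9 epidermal genes were near the top of every group (median percentile 98.8 or higher). They summed to 145620 to 164763 in vehicle and 134439 to 155034 in TCDD pools at 1 dpa. At 3 dpa these ranges were 138398 to 152737 and 116626 to 138879, and at 5 dpa 138983 to 154072 and 121550 to 128677. Of the 9, 1 gene, krt94, fell with TCDD at 3 and 5 dpa, where 1.11% and 1.64% of probe sets were called. The 12 bone and mesenchyme genes summed to intensities of 12747 to 21309 in vehicle and 9757 to 12376 in TCDD pools at 1 dpa. The ranges at 3 dpa were 50575 to 70766 and 35320 to 37616, and at 5 dpa 82643 to 91595 and 44184 to 74501. None of these 12 passed at 1 dpa, 2 fell at 3 dpa, and 1 rose and 2 fell at 5 dpa. On the mean of the 3 days, 1 rose and 5 fell, where 3.78% of probe sets passed. The 7 myeloid genes summed to 1941 to 2907 and 1402 to 1847 at 1 dpa, 1326 to 2057 and 1280 to 1428 at 3 dpa, and 1521 to 2049 and 1252 to 2046 at 5 dpa. Of them, mpx was higher each day on the probe set used here, whose choice by its mean over all arrays favoured this. The other probe sets of that symbol differed by -0.78 to 0.50 without a call. lcp1, coro1a, ptprc, csf1ra and marco had negative differences on each day, none of them called on a single day. lyz differed by -0.14, 0.39 and 0.22 at 1, 3 and 5 dpa. On the mean of the 3 days marco, a macrophage scavenger receptor gene, fell by 1.52 (limma adjusted p = 0.00104). At an unadjusted p under 0.05 there were 7, 7 and 5 of the 12 bone and mesenchyme genes and 4, 2 and 2 of the 7 myeloid genes at 1, 3 and 5 dpa, beside 8.01%, 10.8% and 17.6% of probe sets. For the 9 epidermal genes these counts were 0, 2 and 5.

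Genes of red cells, liver and muscle gave no call with TCDD in limma on any day. At an unadjusted p under 0.05 there were 1, 0 and 0 of the 6 erythrocyte genes, 0, 0 and 1 of the 8 liver genes and 2, 1 and 4 of the 10 muscle genes at 1, 3 and 5 dpa, to be read against the same shares of probe sets. The 6 erythrocyte genes summed to 1957 to 4180 in vehicle and 3215 to 7281 in TCDD pools at 1 dpa. The ranges at 3 dpa were 2498 to 4411 and 4778 to 6276, and at 5 dpa 4997 to 5521 and 4192 to 6099. The 8 liver genes summed to 91 to 174 and the 10 muscle genes to 107 to 247 over all pools, at median percentiles of at most 25.3 and 13.7. The log2 difference between the 3' and 5' probe sets of the GAPDH control, a sign of RNA quality, was 3.38 and 4.06 on the vehicle and TCDD letter C arrays of 3 dpa. It was 1.38 to 3.03 on the 16 other arrays.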

How the data were processed

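GCRMA is the tool named in the submitters' processing notes, and the authors deposited 1 linear intensity for each probe set and array. No version or setting of GCRMA is given in the sources, and background correction and normalization stand as deposited. Array medians ran from 74.28 to 83.55. The number of arrays limits the precision. Of 15617 probe sets, 115 controls were left out. Of the 15502 others, 10795 carried 1 symbol, 10711 of them found in a RefSeq gene table, 135 carried several and 4572 none. A gene with several probe sets was read from the one with the highest mean over all arrays, a choice that favours a probe set raised in some groups.

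The members and lists were chosen with earlier results of these data known. Log2(intensity + 1) was fitted with limma 3.58.1 in R 4.3.3 (6 group means over 18 arrays, eBayes with trend), with two-sided tests and Benjamini-Hochberg adjustment of p-values over 15502 probe sets. The step was tested on simulated arrays, drawn independently and so without the correlation by letter of the real ones. At 1 dpa it called 59 of 100 probe sets with a simulated log2 difference of 1 and 95 of 100 with one of 2. It also called 7 unchanged probe sets. Percentiles, ranks, Pearson's r and figures came from Python 3.11.15 and matplotlib 3.10.9. Genes like a member were the 5 with the highest r among genes with a mean log2 level of at least 5. Named list genes were those called and the nearest relatives of a member by symbol. Those named for lying nearest to a call or at the end of a list's range were chosen after their values were seen.

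Letters pair the arrays. Deviations from group means correlated above 0.1 in all 7 pairs of arrays with the same day and letter (0.20 to 0.70), and in 2 of 20 with different letters. What a letter marks is not in the labels. Letter E is on 1 array, which under a letter block carries no information on TCDD. The fit without the block is the one reported. Alternatives were another pseudocount, quantile normalization, median centring, no dim probe sets, a constant prior, the letter as a block, fewer groups in the fit, each array left out in turn, and both letter C arrays of 3 dpa left out, which was chosen after seeing the data.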

Additional observations from a re-analysis of the deposited data

How the results depend on the processing

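Under the replicate block, the TCDD differences of the 4 genes kept their direction, while the sult6b1 call was lost at 1 dpa and gained at 5 dpa. These differences chose the genes, so that such calls are a description. The block changed the vehicle step of cyb5a from 1 to 3 dpa to -0.48, that of sult6b1 to 0.95 (no longer called), and the change of the TCDD difference from 3 to 5 dpa to 0.18 for cyb5a and 0.03 for nt5c2l1. The step of sult6b1 in vehicle fish, 1.24, did not pass with only the groups compared, and its step in TCDD fish, 0.84, passed without dim probe sets. Without the letter C arrays of 3 dpa, the TCDD difference of sult6b1 at 3 dpa was 0.87 and its change from 3 to 5 dpa was 0.19. A pseudocount of 16 gave 1.61, 2.11 and 2.06 for nt5c2l1, which is missing without dim probe sets. The causes were not tested.

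Of the 46 other list genes, 0 passed at 1 dpa under median centring, a constant prior, only the groups compared and without letter C of 3 dpa, and 2 passed at 3 dpa with the block. On the mean of the 3 days 2 passed under quantile normalization, median centring and without dim probe sets, and 3 under a constant prior and the block. With each array left out, these counts ran from 0 to 1 at 1 dpa, 0 to 1 at 3 dpa and 1 to 2 on the mean. Left-out arrays gave 1.04 to 1.47 for sult6b1 from 1 to 3 dpa in vehicle and 0.65 to 1.19 in TCDD fish, and -0.30 to 0.13 from 3 to 5 dpa in vehicle. For cyb5a the TCDD difference changed by -0.17 to 0.73 from 1 to 3 dpa and by -0.75 to 0.22 from 3 to 5 dpa. For nt5c2l1 these ranges were -0.04 to 0.84 and -0.46 to 0.16, and its step in TCDD fish from 3 to 5 dpa was -0.12 to 0.49.

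Over all probe sets, the calls numbered 38, 172 and 255 at 1, 3 and 5 dpa and 586 for the averaged difference. Settings other than single left-out arrays gave 0 to 45, 36 to 489, 115 to 520 and 385 to 1063. They included a fit of just the compared groups and one without both letter C arrays of 3 dpa. Leaving out each array in turn gave 11 to 98, 72 to 194, 126 to 288 and 436 to 670, the 98 coming without vehicle letter B of 1 dpa and the 11 without vehicle letter D. Vehicle steps called 854 from 1 to 3 dpa (175 to 959) and 53 from 3 to 5 dpa (2 to 322), and the TCDD step from 1 to 3 dpa called 1670 (754 to 2288), with 339 to 900, 7 to 63 and 936 to 1795 over the left-out arrays.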
